A study of Mus musculus with 8 samples.

Results

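Gene expression was compared between PACAP38 and saline in the ischemic hemisphere of mice 24 h after the start of PMCAO (permanent occlusion of the middle cerebral artery), a model of stroke in which a filament blocks the vessel and is left in place. The comparison comprised the 2 of the 8 arrays of the series that the labels title as PMCAO control and PMCAO+PACAP at 24 h. Both groups were C57BL/6J males of 8 to 12 weeks, and both underwent PMCAO and an intracerebroventricular injection immediately afterwards, which held 1 pmol of PACAP38 in 1 µl in one group and 1 µl of saline in the other. Total RNA of 3 mice per group was pooled, and the mice had been selected by neurological grade. The tissue was the right hemisphere without olfactory bulb and cerebellum, and it held infarct core, penumbra and non-ischemic tissue together, while the injection had been made on the left side. Each two-colour array held both pools, with PACAP38 in Cy5 on one array and in Cy3 on the other. The labels number the arrays as separate pools, but according to the methods one preparation of RNA received both dyes in turn, so the 2 arrays were 1 replicate. No test between mice was therefore possible, and all values describe these pools. Where the sham comparison of 24 h and both comparisons of 6 h are mentioned, the sham mice had the external carotid artery exposed without occlusion and received the same injections.

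A gene was called measured when PACAP38 or saline was well above background on both arrays, by the flag of the scanner software, which held for 15490 of the 21210 gene symbols on the array. It was called higher or lower with PACAP38 when both arrays passed the threshold of 1.5-fold or of 0.75-fold, which are the limits used in the study. By this rule 97 genes were higher, 0.626% of the measured genes, and 804 were lower, 5.19% of them. Beside each gene below, the value of the array with PACAP38 in Cy5 comes first and that of the array with PACAP38 in Cy3 second. Signals are the processed intensities of the software, and fold values are PACAP38 over saline, from the mean log2 ratio of both arrays.

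Arterial occlusion kills neurons in the core within hours, and the dying tissue releases signals that activate microglia, astrocytes and endothelium. These cells make cytokines and chemokines through NF-kB, AP-1 and STAT3, and endothelial adhesion molecules then let neutrophils and later monocytes enter the tissue from the blood. PACAP38 is a neuropeptide of the VIP and secretin family. It acts mainly through the PAC1 receptor (*Adcyap1r1*) and the VPAC receptors (*Vipr1*, *Vipr2*), raises cyclic AMP and is known for protecting neurons and for dampening cytokine production by immune cells.

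The genes lower with PACAP38 reached more extreme folds than the genes higher with it, but their median change was not larger. The thresholds also differ in size, as 0.75-fold is a smaller change than 1.5-fold. Among the 804 lower genes the median fold was 0.579 and the range ran from 0.0181 to 0.745, with 259 genes beyond 2-fold and 53 beyond 4-fold by the measured ratios. Among the 97 higher genes the median was 1.82 and the range 1.51 to 4.25, with 26 genes beyond 2-fold and 1, *Fgf21*, beyond 4-fold. In 699 of the lower genes the PACAP38 signal was still well above background on both arrays, in 52 on 1 array and in 53 on neither array. The last have only a lower limit, given as "at least", and with these genes counted at their limit 235 lower genes were beyond 2-fold, 38 beyond 4-fold and the median fold was 0.586, and 23 higher genes were beyond 2-fold. Over the 27114 measured probes the ratios of the 2 arrays correlated at 0.493 and over all probes, dim ones included, at 0.0530, a description across probes that share the same RNA, and the median difference between an array and the mean of both was 0.11 on the log2 scale. For comparison, 88 measured genes passed the threshold on each array but with opposite signs. The median log2 ratio over all measured genes was 0.04.

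**Figure D1:**
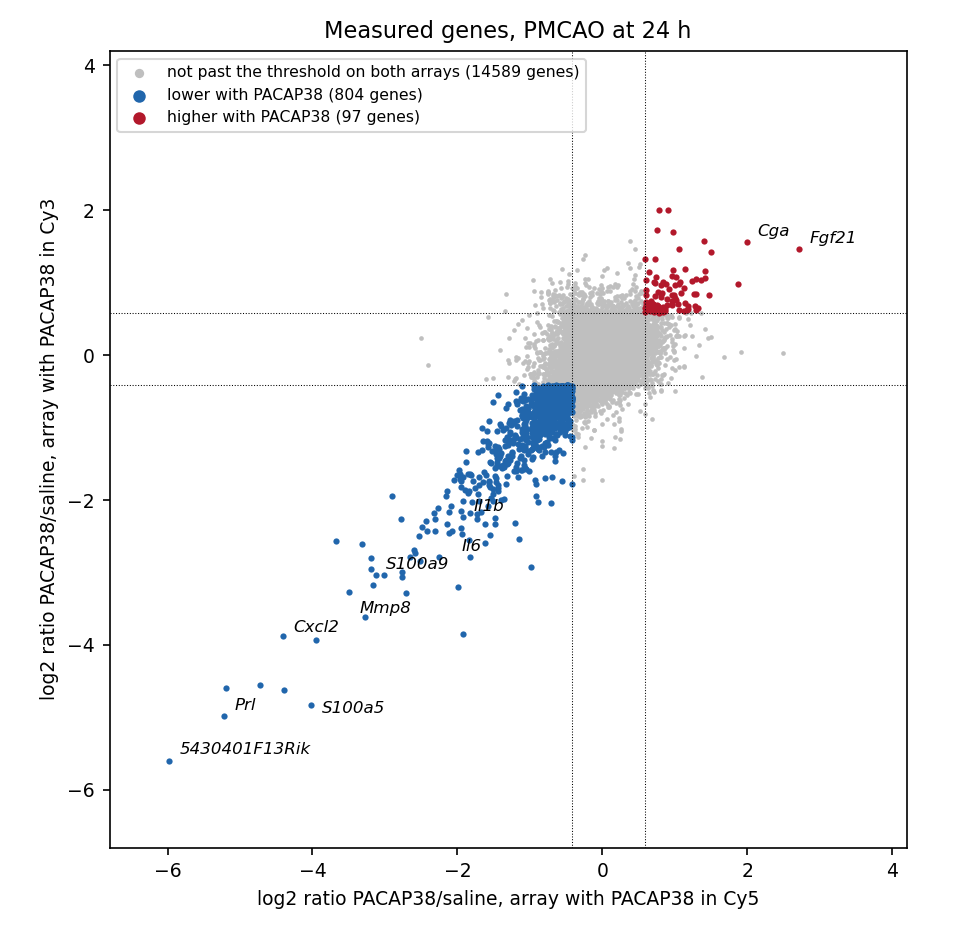
Log2 ratio of PACAP38 over saline for each of the 15490 measured genes in PMCAO at 24 h, on the array with PACAP38 in Cy5 (horizontal axis) and on the array with PACAP38 in Cy3 (vertical axis). Dotted lines mark the thresholds of 1.5-fold and 0.75-fold. The 804 lower genes stretch along the diagonal to log2 values near -6, whereas the 97 higher genes stay close to the threshold apart from *Fgf21* and *Cga*.

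Genes of neutrophils, the first blood leukocytes to enter an infarct, had the highest share of lower members and the lowest median of the 55 gene lists. Of the 28 genes of that list on the array, 24 were measured, 21 of these were lower and none was higher, with a median log2 ratio of -1.84. Because 5 of the 21 have only a limit, the median with these genes set at their limit was -1.82. *S100a9*, a subunit of the calcium-binding protein calprotectin that fills the neutrophil cytoplasm, gave signals of 46413 and 40251 in saline and 5322 and 4916 in PACAP38. Its log2 ratios were -3.12 and -3.03, a fold of 0.118. Its partner *S100a8* was at 0.133-fold. Both arrays thus gave nearly the same ratio for *S100a9*.

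*Mmp8*, the neutrophil collagenase, had saline signals of 384 and 363 and PACAP38 signals of 34.1 and 37.6, log2 ratios of -3.49 and -3.27 and a fold of 0.0958. *Retnlg*, a resistin-like protein of myeloid cells, had 1195 and 1297 in saline against 134 and 144 in PACAP38, a fold of 0.112. *Ngp*, neutrophilic granule protein, was well above background only in saline, where it gave 78.5 and 51.8, and was at least 3.91-fold lower with PACAP38. In these genes the saline signal exceeded the PACAP38 signal on each array, which the calling rule requires of every lower gene. *Csf3*, which encodes the granulocyte growth factor G-CSF, was at 0.128-fold, *Trem1*, an amplifier of myeloid activation, at 0.156-fold with PACAP38 above background on 1 of 2 arrays, and *Fpr1*, a receptor for formylated peptides, at 0.278-fold. The 3 measured members that were not past the threshold were *Csf3r*, *Mpo* and *Prtn3*, at 0.718-fold, 0.853-fold and 0.857-fold. *Mpo* and *Prtn3* encode enzymes of the primary granules. In bulk tissue, fewer cells of a type and less RNA per cell cannot be told apart.

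Chemokines that attract neutrophils through the receptor CXCR2 were lower as well. Of 11 measured members of the CXC chemokine list, which also holds the CX3C chemokine *Cx3cl1*, 6 were lower and none higher, with a median log2 ratio of -0.85. *Cxcl1*, made by injured astrocytes and endothelium, had saline signals of 966 and 1075 and PACAP38 signals of 143 and 135, log2 ratios of -2.76 and -2.99 and a fold of 0.136. *Cxcl3* had 228 and 263 in saline and 23.6 and 21.6 in PACAP38, a fold of 0.0921. *Cxcl2* gave 83.4 and 84.8 in saline and was not well above background with PACAP38 on either array, so that it was at least 5.13-fold lower. The platelet chemokines *Ppbp* and *Pf4* were at 0.119-fold and 0.317-fold. The receptor *Cxcr2* itself was at 0.288-fold, from 99.7 and 89.1 in saline to 29.5 and 25.0 in PACAP38. The sixth lower member was *Cxcl16*, the ligand of CXCR6, at 0.556-fold. Members not past the threshold included *Cxcl10*, an interferon-induced attractant of T cells, at 0.712-fold, *Cxcl12*, the constitutive ligand of CXCR4, at 1.13-fold and *Cx3cl1*, the neuronal ligand of the microglial receptor CX3CR1, at 1.31-fold.

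Among CC chemokines, which mainly attract monocytes, 8 of 15 measured members were lower and the median log2 ratio was -0.65. *Ccl3* had 2306 and 2439 in saline and 611 and 518 in PACAP38, a fold of 0.237. *Ccl4*, which attracts many of the same cells, had 2540.4 and 2422 in saline and 655 and 687 in PACAP38, a fold of 0.271. *Ccl2*, the main ligand of CCR2 on inflammatory monocytes, had 7144 and 8761 in saline and 3558 and 2893 in PACAP38, and its arrays differed more, with log2 ratios of -1.01 and -1.60 and a fold of 0.406. In all 3 the saline signal lay above the PACAP38 signal on each array, as the calling rule requires. *Ccl11*, an attractant of eosinophils, was at 0.257-fold. For this gene a single array had PACAP38 above background. The other lower members *Ccl5*, *Ccl6*, *Ccl7* and *Ccl9* lay between 0.377-fold for *Ccl9* and 0.638-fold for *Ccl5*. *Ccl12*, another CCR2 ligand, was at 0.885-fold, and *Ccl17* and *Ccl25* at 1.05-fold and 0.948-fold, none of them past the threshold. Of the 9 measured chemokine receptors 6 were lower, *Cxcr4* and *Ackr3*, the receptors of CXCL12, at 0.537-fold and 0.528-fold, *Ccrl2* at 0.437-fold, *Ccr2*, with PACAP38 above background on 1 of 2 arrays, at 0.609-fold and *Ccr7*, the receptor that guides dendritic cells to lymph nodes, at least 1.26-fold lower. With *Ccr7* at its limit the median of the receptor list was -0.72, against -0.90 as measured.

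Grouped by the stem of the gene symbol, the families with the largest share of lower genes among those with 6 or more measured members were *Ccl* with 9 of 16, *Cxcl* with 4 of 8, *Ifitm* with 3 of 6 and *Mmp* with 7 of 14, and none of these had a higher member.

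Some of these genes hold matches to the NF-kB motif near their start. The windows of 250 bases before the start, taken from RefSeq on the build GRCm38.p6, are shown for chemokine, cytokine and inhibitor genes that were lower on both arrays. Matches on either strand to GGG and TTTCC with any 2 bases between them are in capitals. The *Cxcl1* and *Cxcl2* windows lie on the same chromosome and the plus strand, at chr5:90890995-90891244 and chr5:90903649-90903898, with matches that start 89 and 71 bases before the start of *Cxcl1* and 97 and 78 bases before that of *Cxcl2*. The *Il6* window is at chr5:30012864-30013113 on the plus strand with a match 44 bases before the start, and that of *Nfkbia* at chr12:55492648-55492897 on the minus strand with a match 29 bases before it.

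Cxcl1: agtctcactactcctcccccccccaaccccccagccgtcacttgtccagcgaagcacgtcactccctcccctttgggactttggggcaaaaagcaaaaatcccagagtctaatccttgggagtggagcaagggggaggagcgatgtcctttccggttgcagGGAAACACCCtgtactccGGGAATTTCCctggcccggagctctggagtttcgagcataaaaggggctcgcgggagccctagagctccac

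Cxcl2: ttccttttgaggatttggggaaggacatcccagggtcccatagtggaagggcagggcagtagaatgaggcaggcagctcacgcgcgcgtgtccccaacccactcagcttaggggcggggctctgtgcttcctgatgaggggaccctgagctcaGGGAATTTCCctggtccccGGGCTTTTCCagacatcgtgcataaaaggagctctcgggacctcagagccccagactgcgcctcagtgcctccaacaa

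Il6: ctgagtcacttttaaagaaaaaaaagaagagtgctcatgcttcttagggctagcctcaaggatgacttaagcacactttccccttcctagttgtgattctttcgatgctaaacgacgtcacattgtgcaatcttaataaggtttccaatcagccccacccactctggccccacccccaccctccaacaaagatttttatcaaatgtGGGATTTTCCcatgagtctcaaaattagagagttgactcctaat

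Nfkbia: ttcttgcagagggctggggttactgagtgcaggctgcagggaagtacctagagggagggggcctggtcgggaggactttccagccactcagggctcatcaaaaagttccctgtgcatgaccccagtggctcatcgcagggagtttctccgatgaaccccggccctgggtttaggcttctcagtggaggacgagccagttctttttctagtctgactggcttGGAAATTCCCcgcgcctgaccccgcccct

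This match was in 464 of all 32851 windows (1.41%) and in the windows of 205 of the 11762 measured genes with a window (1.74%). It was in 24 of the 586 lower genes with a window (4.10%) and in 1 of the 63 higher genes with a window. By list, 3 of 5 lower CXC chemokines, 3 of 13 lower TNF and NF-kB genes and none of 18 lower neutrophil genes with a window held it. The AP-1 letters TGANTCA, on either strand, were in 5.92% of measured genes, 12.3% of lower genes and 15.9% of higher genes, and the CRE letters TGACGTCA, the site of the cyclic AMP pathway, in 2.91% of measured and 3.07% of lower genes. These shares were not tested, and a match is a description of letters, not of binding.

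The list of tumor necrosis factor and NF-kB feedback genes had 17 of 21 measured members lower and none higher, with a median log2 ratio of -0.85, and all 21 were below 0 on both arrays. *Tnf*, an early cytokine of microglia, had saline signals of 107 and 95.8 and PACAP38 signals of 28.8 and 26.5, log2 ratios of -1.90 and -1.87 and a fold of 0.271. *Cd14*, a co-receptor of the Toll-like receptors, had 5152 and 4627 in saline and 1034 and 1023 in PACAP38, a fold of 0.211. The inhibitors that NF-kB induces against itself were lower too, *Tnfaip3* (A20) at 0.442-fold, *Nfkbiz* at 0.556-fold and *Nfkbia* (IkB-alpha) at 0.624-fold. The receptors *Tnfrsf1b* and *Tnfrsf1a* were at 0.434-fold and 0.61-fold. The subunit genes *Nfkb2* and *Relb*, both at 0.586-fold, passed the threshold, whereas *Nfkb1* at 0.756-fold did not.

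In the IL-6 family the cytokines *Il6*, *Il11* and *Osm* were lower by more than any receptor of the list. *Il6* had 476 and 548 in saline and 109.8 and 101 in PACAP38, log2 ratios of -2.12 and -2.45 and a fold of 0.205. *Il11*, which signals through the same receptor chain gp130, had 3328 and 2807 in saline and 593 and 540.0 in PACAP38, a fold of 0.185. *Osm* (oncostatin M, a product of neutrophils and macrophages) had 55.9 and 57.0 in saline and 19.3 and 14.6 in PACAP38, where 1 of 2 arrays was above background, a fold of 0.298. *Socs3*, the feedback inhibitor that STAT3 induces, was at 0.471-fold, from 9708 and 8851 to 4488 and 4241. *Stat3* itself and the receptor *Osmr* were at 0.693-fold and 0.74-fold. The gp130 gene *Il6st* at 0.832-fold, *Il6ra* at 0.776-fold and *Lifr* at 1.41-fold were not past the threshold on both arrays. In all, 7 of 15 measured members of this list were lower, with a median log2 ratio of -0.43.

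In the IL-1 family both agonists and inhibitors were lower. *Il1b* had 629 and 660.4 in saline and 162 and 148 in PACAP38, log2 ratios of -1.95 and -2.16 and a fold of 0.24. The natural antagonist *Il1rn* and the decoy receptor *Il1r2*, which both limit IL-1 action, were lower as well, at 0.328-fold from 242 and 268 to 87.4 and 79.7 and at 0.28-fold from 461 and 422 to 118 and 129. *Il1a* was well above background only in saline and at least 1.63-fold lower. The alarmin *Il33* and the adaptor *Myd88* were at 0.657-fold and 0.713-fold. *Il18*, another member that the inflammasome activates, was at 1.18-fold. The signalling receptor *Il1r1* was at 0.831-fold and its accessory chain *Il1rap*, with 389.5 and 376 in saline and 483 and 405 in PACAP38, at 1.16-fold, none of these past the threshold. In all, 6 of 12 measured members were lower, with a median log2 ratio of -0.40. Of the other interleukins 9 of 26 were measured and 1 was lower, *Il19* of the IL-10 family, at 0.379-fold. *Il22* had 66.0 and 87.0 in saline and 120.0 and 104 in PACAP38, and its log2 ratios of 0.86 and 0.25 did not both pass the threshold. In the prostaglandin pathway the inducible enzymes *Ptges* and *Ptgs2* (COX-2) were at 0.386-fold and 0.57-fold, and 4 of 20 measured members were lower.

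**Figure D2:**
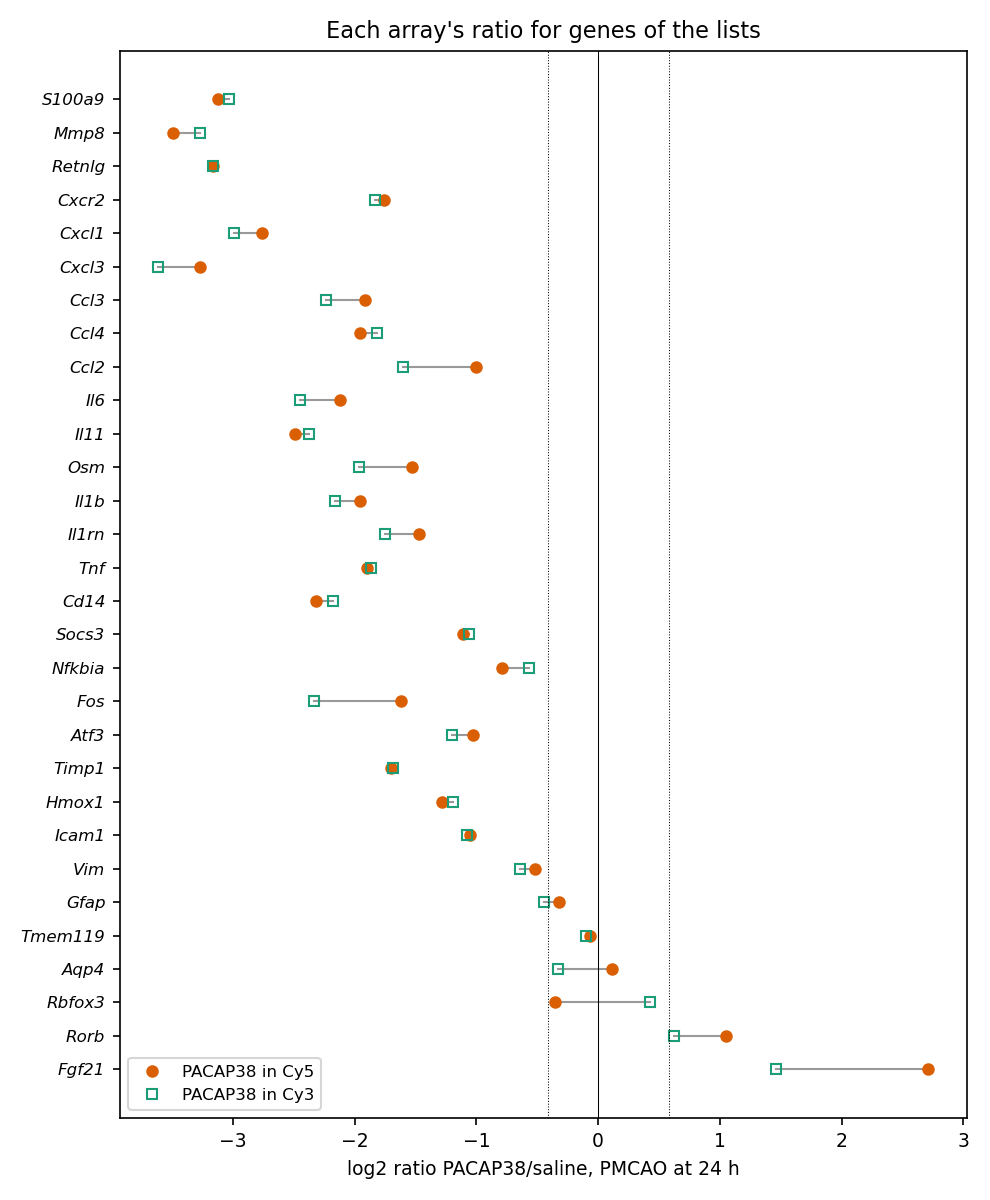
Log2 ratio of PACAP38 over saline in PMCAO at 24 h for genes of the lists, with the array holding PACAP38 in Cy5 as circles and the array holding it in Cy3 as squares, joined by a line. Dotted lines mark the thresholds. Neutrophil and chemokine genes lie lowest, with *Mmp8* at -3.49 and -3.27, while *Tmem119*, *Aqp4* and *Rbfox3* lie around 0 and *Rorb* and *Fgf21* lie above the upper threshold.

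Genes of macrophages and of resident microglia, which share a myeloid program, moved differently from each other. Of 25 measured macrophage and phagocyte genes 11 were lower, with a median log2 ratio of -0.43, and of 15 measured homeostatic microglia genes 1 was, *Fcrls* at 0.726-fold, with a median of -0.06. *Spp1* (osteopontin), which phagocytes in infarcts make in large amounts, had 32930.4 and 32175 in saline and 12668 and 10900.1 in PACAP38, a fold of 0.361. *Arg1*, an enzyme of repair macrophages, was at 0.297-fold, *Hmox1* (heme oxygenase 1) at 0.425-fold from 6928 and 6617 to 2849 and 2900.1, and *Lgals3* at 0.471-fold. The general phagocyte genes *Cd68*, *Ctss* and *Mpeg1* were at 0.902-fold, 0.913-fold and 0.914-fold. The microglial identity genes *Tmem119*, *Cx3cr1* and *Csf1r* were at 0.946-fold, 0.962-fold and 0.962-fold. *P2ry12*, the purine receptor that microglia lose on activation, was at 1.37-fold and *Gpr34* at 1.66-fold, neither past the threshold on both arrays. The difference between the macrophage and microglia lists was not tested.

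Interferon-stimulated genes stayed near the median of all genes, with 3 of 29 measured members lower and a median log2 ratio of -0.03. The 3 were *Rsad2* (viperin) at 0.572-fold, the transcription factor *Irf1* at 0.619-fold and *Isg20* at 0.663-fold, whereas *Isg15*, *Ifit1* and *Ifit3* were at 1.03-fold, 1.07-fold and 1.04-fold. In antigen presentation 6 of 17 were lower, among them the class II genes *H2-Aa* and *H2-Ab1* at 0.568-fold and 0.62-fold, which belong to a family of closely related sequences, *H2-Aa* being above background with PACAP38 on 1 of 2 arrays. Complement had 1 of 17 lower, its central component *C3* at 0.656-fold from 796 and 808 to 537 and 515. Of 7 measured T and NK lymphocyte genes 1 was lower, *Crtam*, an adhesion receptor of activated T and NK cells, with 50.6 and 53.7 in saline and 29.7 and 28.6 in PACAP38, a fold of 0.559. The other 6, among them *Lck* and *Zap70* of the T cell receptor cascade at 0.964-fold and 0.822-fold, were not past the threshold.

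**Figure D3:**
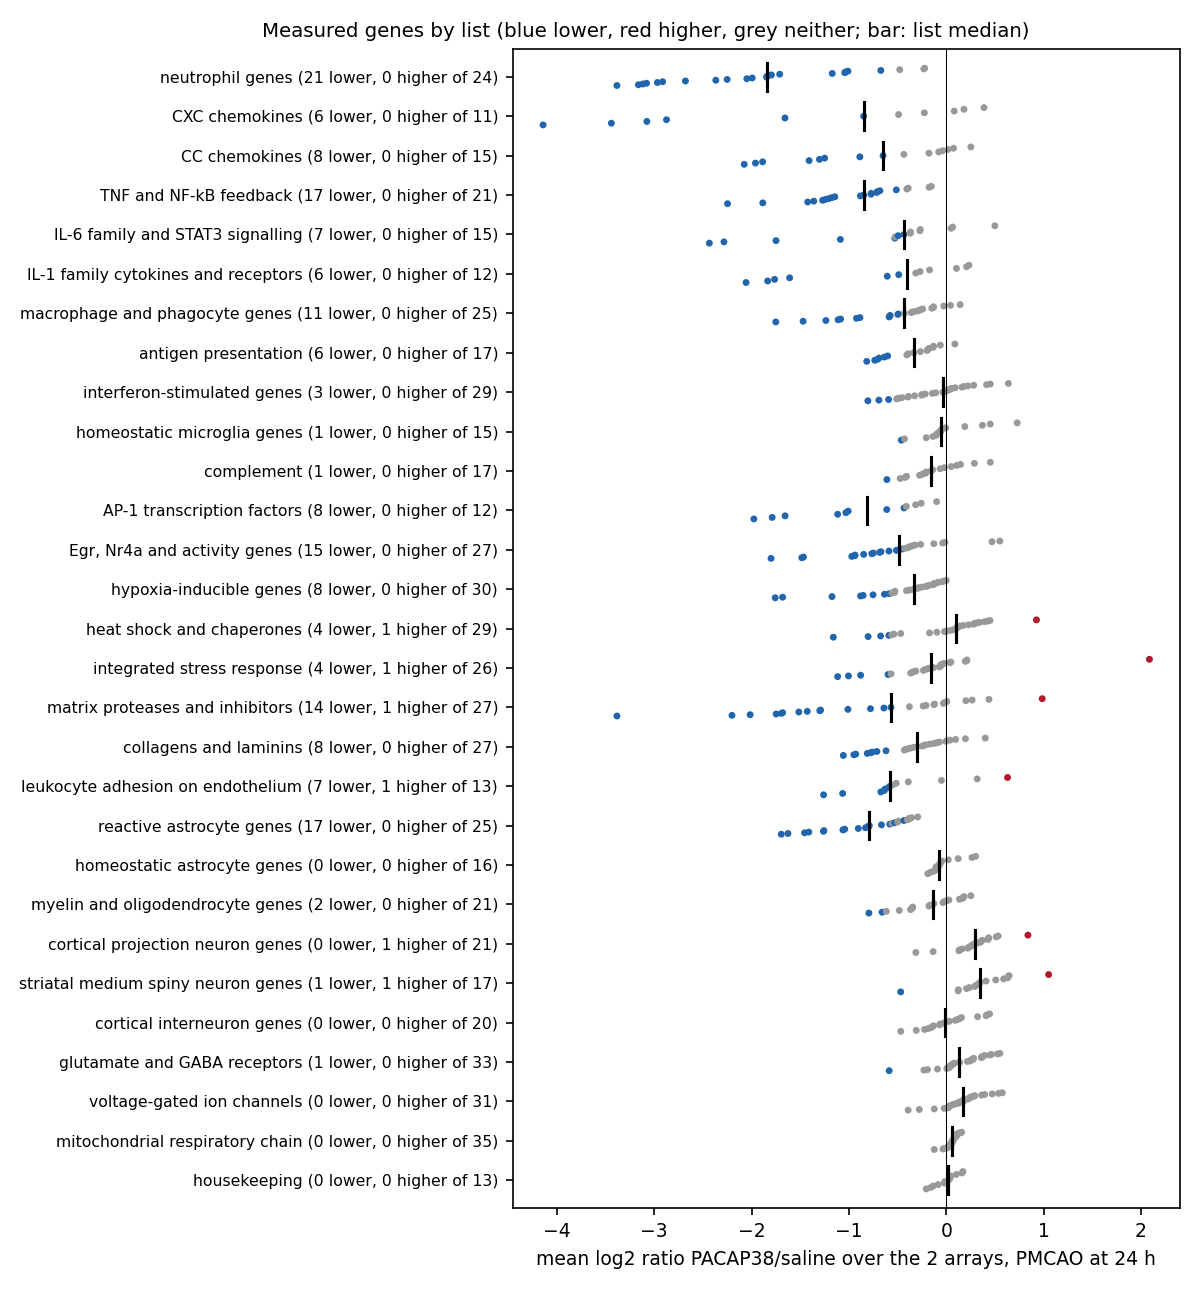
Mean log2 ratio of PACAP38 over saline in PMCAO at 24 h for every measured gene of 29 lists, 1 point per gene, blue where lower and red where higher past the threshold on both arrays, with a bar at the median of each list. The neutrophil list is shifted furthest, with a median of -1.84, and the lists of homeostatic microglia, homeostatic astrocytes, mitochondrial and housekeeping genes are centred near 0.

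Transcription factors of the AP-1 family, which stress kinases and neuronal activity induce, were lower in 8 of 12 measured members, with a median log2 ratio of -0.81. *Fos* had 1743 and 2125 in saline and 567 and 422 in PACAP38, log2 ratios of -1.62 and -2.33 and a fold of 0.254. *Fosl1* and *Fosb* were at 0.29-fold and 0.317-fold, and *Atf3*, an injury-induced factor, at 0.462-fold from 2662 and 2751 to 1305 and 1196. *Junb* was at 0.498-fold, *Jun* just inside the threshold at 0.741-fold and *Jund*, the constitutive member, at 0.805-fold outside it. The 4 members not past the threshold included *Fosl2* and *Mafk*.

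Of the other immediate early genes 15 of 27 were lower, with a median of -0.49. *Egr2* was at 0.362-fold, *Gadd45b* at 0.358-fold from 7144 and 7717 to 2604 and 2707, the matricellular gene *Ccn1* at 0.287-fold, *Egr1* at 0.589-fold and *Nr4a1* at 0.522-fold. The synaptic activity genes did not all follow, as *Npas4* was at 0.556-fold but *Arc* at 0.916-fold and *Homer1* at 1.39-fold, the last 2 not past the threshold.

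Of 29 measured heat shock and chaperone genes 4 were lower and 1 higher, with a median log2 ratio of 0.10. *Hspa1a*, the inducible HSP70, had 44594 and 45169 in saline and 21345 and 18910.5 in PACAP38, a fold of 0.448, and shares sequence with its copy *Hspa1b*, so that the probe may read both. *Hspb1* (HSP27) was at 0.573-fold and *Hspb3*, a small heat shock protein of muscle and nerve, was higher at 1.90-fold from 395 and 374 to 725 and 738, while the constitutive chaperones *Hspa8* and *Hsp90ab1* were at 1.13-fold and 1.08-fold. In the list of hypoxia-inducible genes 8 of 30 were lower and 23 lay below 0 on both arrays, with a median of -0.33. Adrenomedullin (*Adm*), a vasodilator peptide, had 1490.4 and 1915 in saline and 525 and 475 in PACAP38, a fold of 0.296, and *Vegfa* was at 0.694-fold without passing on both arrays. The glycolytic genes *Pgk1*, *Aldoa* and *Eno1* were at 0.868-fold, 0.975-fold and 0.978-fold. Of the genes of oxidative defence 6 of 28 were lower and 17 lay below 0 on both arrays, including metallothionein 2 (*Mt2*) with 120042 and 115464 in saline and 77134 and 45626 in PACAP38, a fold of 0.504. The enzymes *Sod1*, *Gpx1* and *Cat* were at 1.04-fold, 0.969-fold and 0.972-fold.

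The integrated stress response, in which ATF4 induces genes of amino acid supply and stress hormones, held the highest gene of the comparison. *Fgf21*, a stress hormone of the fibroblast growth factor family, had PACAP38 signals of 76.9 and 66.3 and saline signals of 11.7 and 24.0, the saline signal being above background on 1 of the arrays. Its log2 ratios were 2.71 and 1.46, a fold of 4.25. Both arrays put PACAP38 above saline but by different amounts, and with normexp background correction, which adds an offset to dim spots, the mean log2 ratio of *Fgf21* was 0.65. No other of the 26 measured members of that list was higher and 4 were lower, *Atf3*, *Gdf15*, *Cebpb* and *Nupr1*. *Atf4*, *Ddit3* (CHOP) and *Trib3* were at 0.784-fold, 0.882-fold and 0.791-fold, *Asns* and *Chac1*, both ATF4 targets, at 1.16-fold and 1.16-fold, and *Gdf15*, another stress hormone, at 0.544-fold. The promoter window of *Fgf21* holds 1 match to the letters TGATGNAAT on either strand, those of a composite C/EBP and ATF site, which 0.816% of all 32851 windows hold.

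Fgf21: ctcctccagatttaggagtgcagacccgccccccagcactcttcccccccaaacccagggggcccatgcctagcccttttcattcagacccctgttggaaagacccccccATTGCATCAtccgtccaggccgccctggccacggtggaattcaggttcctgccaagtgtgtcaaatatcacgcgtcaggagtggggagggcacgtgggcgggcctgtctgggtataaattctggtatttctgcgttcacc

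The window lies at chr7:45615491-45615740 on the minus strand of GRCm38.p6 and the match, in capitals, starts 140 bases before the gene start.

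Matrix and vessel genes, which regulate the opening of the blood-brain barrier, were lower in part. Of 27 measured matrix proteases and inhibitors 14 were lower and 1 higher, with a median log2 ratio of -0.57, or of -0.46 with the 4 members that have only a limit set at that limit. *Timp1*, an inhibitor of metalloproteinases, had 11315 and 10829 in saline and 3475 and 3365 in PACAP38, log2 ratios of -1.70 and -1.69 and a fold of 0.309. *Plaur*, the urokinase receptor, was at 0.298-fold. *Mmp9* was at 0.497-fold and *Mmp3* at 0.409-fold, and *Mmp12* and *Mmp13* were at least 1.54-fold and 1.71-fold lower, whereas the constitutive *Mmp2*, *Timp2* and *Timp3* were at 0.98-fold, 0.917-fold and 0.849-fold. Basement membrane collagens *Col4a1* and *Col4a2* were at 0.518-fold and 0.57-fold, among 8 of 27 lower collagens and laminins.

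On endothelium, *Icam1*, which binds leukocyte integrins, had 1974 and 1960.2 in saline and 951 and 931 in PACAP38, a fold of 0.478, and P-selectin (*Selp*), which starts leukocyte rolling, had 105 and 109 in saline and 50.1 and 40.3 in PACAP38, a fold of 0.418. *Vcam1* was at 0.967-fold. Of 13 measured adhesion genes 7 were lower and 1, the integrin *Itga4*, was higher at 1.55-fold. Among 20 measured genes of the endothelial barrier 1 was lower, VE-cadherin (*Cdh5*), at 0.387-fold from 1583 and 1704 to 693 and 582, and 1 was higher, the organic anion transporter *Slco1a4*, at 1.86-fold from 684 and 701 to 1374 and 1215. The tight junction genes *Cldn5*, *Ocln* and *Tjp1* were at 0.739-fold, 1.26-fold and 1.15-fold without passing on both arrays, and *Pecam1*, present on all endothelium, was lower at 0.647-fold.

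Astrocyte genes divided by state. Of 25 measured genes of reactive astrocytes 17 were lower, with a median log2 ratio of -0.79, and all 25 lay below 0 on both arrays. Of 16 measured homeostatic astrocyte genes none was past the threshold, with a median of -0.07. Beside *Timp1*, the reactive genes *Emp1* and *Sphk1* were at 0.324-fold and 0.417-fold, nestin (*Nes*) at 0.419-fold, *Lcn2* (lipocalin 2) at 0.485-fold and *Vim* (vimentin) at 0.669-fold. *Gfap*, the classical marker, was at 0.769-fold with log2 ratios of -0.32 and -0.44, of which 1 passed. The water channel *Aqp4*, the glutamate transporters *Slc1a2* and *Slc1a3* and glutamine synthetase (*Glul*) were at 0.928-fold, 1.20-fold, 0.969-fold and 0.931-fold. Genes known from one cell type can be expressed by others, and several of the reactive list are also made by infiltrating cells. In the myelin list 2 of 21 measured genes were lower, *Mobp* at 0.577-fold and *Opalin* at 0.633-fold, while *Mog* was at 0.977-fold.

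Neuronal lists leaned the other way by small amounts. Of 17 measured genes of striatal medium spiny neurons, the cells at the centre of the territory of the artery, 14 were above 0 on both arrays, with a median log2 ratio of 0.35. Of the 17, 1 was higher past the threshold and 1 lower. The dopamine receptors *Drd1* and *Drd2*, the adenosine receptor *Adora2a* and the phosphodiesterase *Pde10a* were at 1.42-fold, 1.55-fold, 1.51-fold and 1.57-fold without passing on both arrays. The opioid precursor *Pdyn* was lower, at 0.723-fold from 18309.8 and 17717 to 13589 and 12489.5.

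Of 21 measured cortical projection neuron genes 16 were above 0 on both arrays, with a median of 0.29, and 1 was higher, *Rorb*, a layer 4 transcription factor, at 1.79-fold from 112 and 118 to 231 and 182. The transcription factor *Neurod6* of the same list was at 1.43-fold without passing on both arrays. Medians were 0.14 for 33 glutamate and GABA receptors, 0.18 for 31 voltage-gated channels and -0.01 for 20 cortical interneuron genes, none of which held a higher gene, against 0.04 for all measured genes. General neuron markers, which every neuron expresses, had a median of 0.07 over 14 genes and none past the threshold, with *Snap25* at 1.08-fold and *Rbfox3* (NeuN) at 1.03-fold, the latter with log2 ratios of -0.35 and 0.43 on opposite sides of 0. Of the 97 higher genes 10 were on any of the 55 lists, and 218 of the 804 lower genes were. Beside *Fgf21* and *Cga*, the 8 highest genes included *9330159M07Rik* at 2.80-fold, the connexin *Gja3*, at least 2.00-fold higher, the urinary protein gene *Mup1*, at least 1.88-fold higher and of a family of near-identical copies, the atrial myosin light chain *Myl7* at 2.62-fold and *Clec2d* at 2.52-fold, with PACAP38 signals between 26.1 and 248 over these 5 genes. *Mup4* of the same family as *Mup1*, chosen after its value was seen, went the other way, at 0.125-fold with both pools well above background. With normexp background correction, among genes named here, the lower genes *Ccl11*, *Ccr7*, *Il1a*, *H2-Aa*, *Crtam*, *Mmp12*, *Mmp13*, *Bub1b* and *Tnfrsf10b* and the higher genes *Gja3*, *Mup1*, *Myl7*, *Rorb* and *Pitx1* no longer passed the threshold, and 21 genes in all were higher.

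The signalling system of the injected peptide did not pass the threshold. *Adcyap1*, the PACAP gene, had 1552 and 1501 in saline and 1659 and 1553 in PACAP38, a fold of 1.05. *Adcyap1r1*, the PAC1 receptor, had 6333 and 6256 in saline and 4925 and 5192 in PACAP38, a fold of 0.803 with log2 ratios of -0.36 and -0.27. *Vip* was at 1.36-fold and *Vipr1* at 0.928-fold, and *Vipr2* was not well above background in either pool. Of 31 measured cyclic AMP signalling genes 1 was lower, *Akap12*, an anchor of protein kinase A, with 25360.5 and 23542 in saline and 7391 and 7034 in PACAP38, a fold of 0.295, while *Creb1*, *Crem* and *Pde4d* were at 1.04-fold, 0.965-fold and 1.03-fold.

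*Igf1* was at 0.841-fold, its binding protein *Igfbp3* was lower at 0.428-fold, and *Bdnf* was at 1.21-fold. The 5 CRMP genes, which encode cytosolic proteins of growing axons, ranged from 0.836-fold for *Dpysl5* to 1.12-fold for *Crmp1*, with *Dpysl2* (CRMP2) at 1.05-fold from 22008 and 24007 to 24338 and 23757. None of the 35 measured genes of the mitochondrial respiratory chain was past the threshold, and they ranged from 0.919-fold for *Uqcrc1* to 1.12-fold for *Cox6c*. The 13 housekeeping genes ranged from 0.868-fold for *Pgk1* to 1.13-fold for *Ywhaz*, with *Gapdh* at 1.03-fold and *Actb* at 0.944-fold.

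To see in which of the 4 pools of 24 h a list was high, signals of the sham and PMCAO arrays, which lay on 1 slide, were normalized together, and the mean log2 signal over the members of a list was taken in each pool and on each array. The mean of the neutrophil list was 4.37 in sham with saline, 4.34 in sham with PACAP38, 7.87 in PMCAO with saline and 5.96 in PMCAO with PACAP38. Of its 24 members 13 were measured in sham, so that the sham means rest in part on signals near background. Over the 13 members, an alternative chosen after seeing the data, the means were 5.76, 5.85, 8.85 and 7.27 in the same order of pools, and PMCAO with PACAP38 lay between sham and PMCAO with saline in both. Over all lists, PMCAO with saline lay above both sham pools in 36 of 55, and in 30 of these PMCAO with PACAP38 lay between, or in 35 and 29 over the members measured in both comparisons. These counts all rest on the same PMCAO saline pool, and some genes are on several lists, so the lists are not independent. The order was not tested. The same order held for CXC chemokines at 7.44, 7.36, 9.70 and 8.20, for the TNF and NF-kB list at 7.79, 7.78, 9.52 and 8.54, and for reactive astrocyte genes at 8.12, 7.90, 10.64 and 9.79. In 5 lists PMCAO with PACAP38 lay below both sham pools instead, as in Egr, Nr4a and activity genes at 11.39, 11.47, 11.73 and 11.15 and in chemokine receptors at 6.01, 6.05, 6.48 and 5.84. In 6 lists the order was turned, with striatal genes at 11.43, 11.41, 10.81 and 11.15 and cortical genes at 11.85, 11.89, 11.45 and 11.71, but not in cortical interneuron genes at 11.52, 11.55, 11.32 and 11.32. Homeostatic microglia genes were lower in both PMCAO pools, at 9.54 and 9.51 against 10.17 and 10.28 in sham. The extent of infarction in the pooled mice is not a value of the arrays, and its part in the lower immune lists and the higher neuronal lists was not tested.

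**Figure D4:**
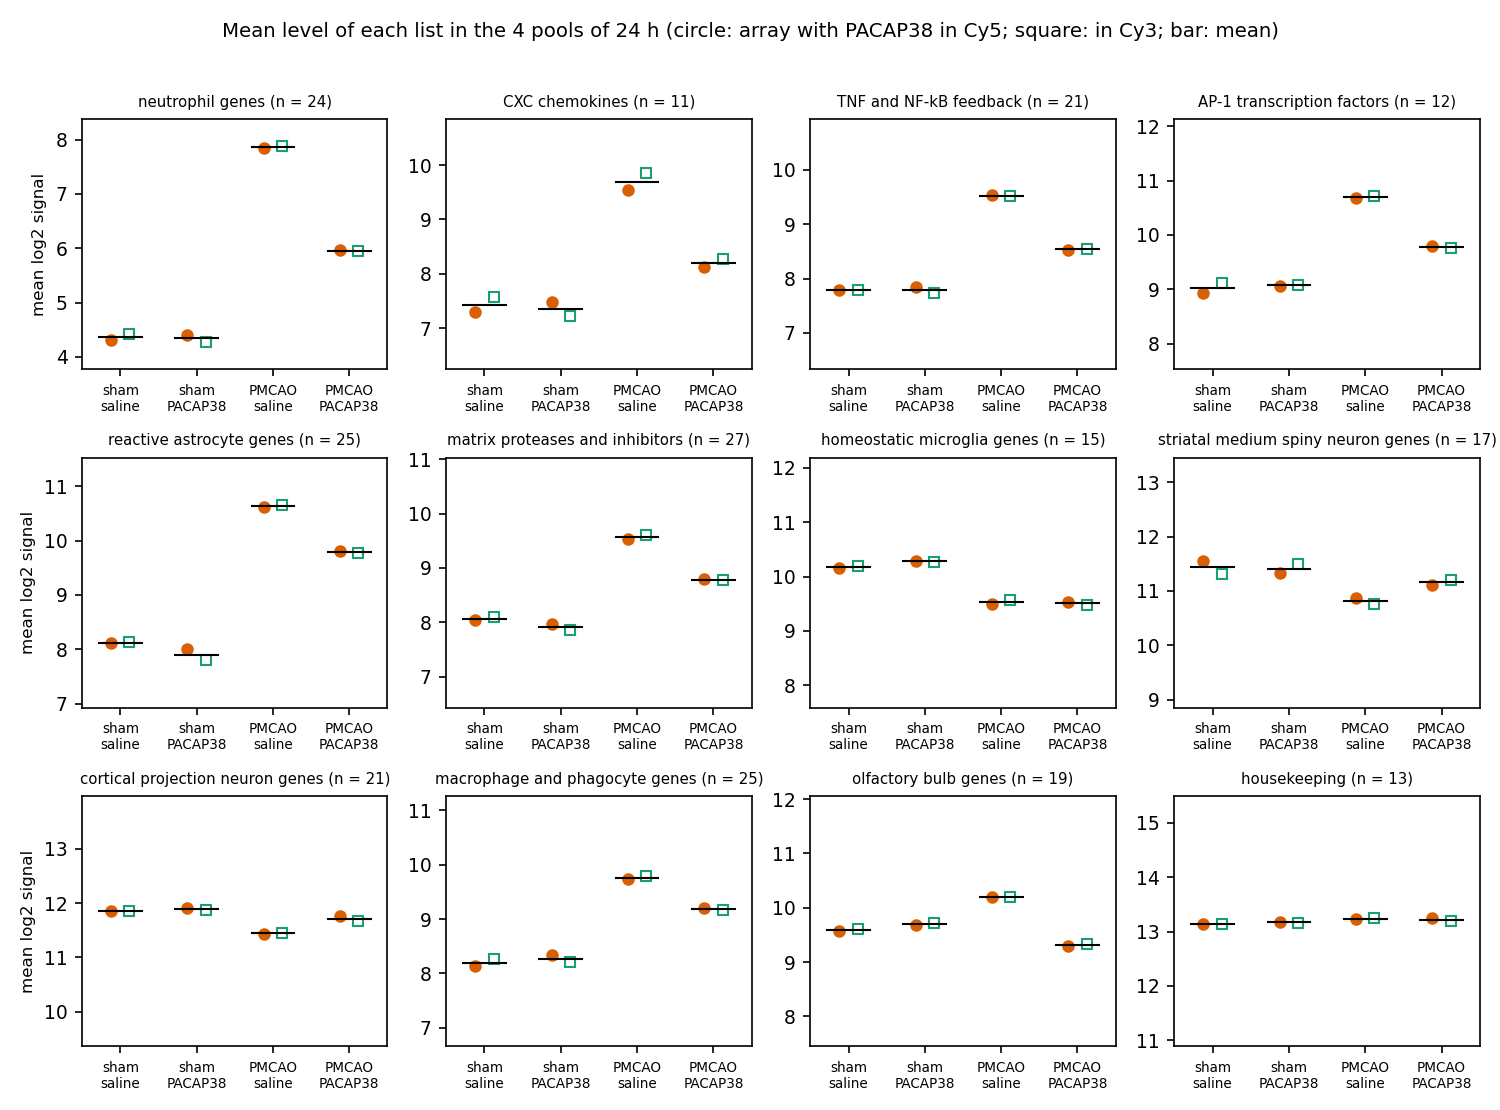
Mean log2 signal over the members of 12 lists in the 4 pools of 24 h, each pool on 2 arrays (circles with PACAP38 in Cy5, squares with PACAP38 in Cy3) and a bar at their mean, with a vertical axis of its own for each list. In neutrophil, chemokine, AP-1, reactive astrocyte and matrix genes the PMCAO pool with PACAP38 lies between the sham pools and the PMCAO pool with saline, as for neutrophil genes at 5.96 against 4.37 and 7.87, and the housekeeping list is level over all 4 pools.

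Among single genes, *Il6* was not well above background in sham and had log2 signals of 8.90 and 9.14 in PMCAO with saline and 6.73 and 6.65 in PMCAO with PACAP38. *Socs3* was at 10.05 and 10.18 in sham with saline, 13.30 and 13.17 in PMCAO with saline and 12.18 and 12.08 in PMCAO with PACAP38. For *Fos*, PMCAO with PACAP38 at 9.15 and 8.74 lay below sham with saline at 9.22 and 9.68. *Fgf21* was not well above background in sham and was at 6.21 and 6.07 in PMCAO with PACAP38, against 3.54 and 4.64 in PMCAO with saline.

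Several of the lowest genes are known from tissue next to the dissected hemisphere. By the measured ratios the 8 lowest were *5430401F13Rik*, *Prl*, *5430402E10Rik*, *LOC628991*, *Bpifb9a*, *S100a5*, *Cxcl2* and *Bpifa1*, of which 5 have only a limit. Ranked by the limits, *Cxcl3*, *Mmp8* and *Retnlg* stood among the 8 in place of *Prl*, *LOC628991* and *Cxcl2*. *5430401F13Rik* had 1414 and 1227 in saline and 22.5 and 25.4 in PACAP38, a fold of 0.0181, and *5430402E10Rik* was at least 25.5-fold lower. *Prl*, the pituitary hormone prolactin, had 128 and 139 in saline and was at least 8.13-fold lower with PACAP38. *Bpifa1* and *Bpifb9a*, secreted proteins of the nasal and airway mucosa, were both well above background in saline. *Bpifa1* had 182 and 205 there and was at least 12.0-fold lower, and *Bpifb9a* had 336 and 377 and, above background with PACAP38 on 1 of 2 arrays, a fold of 0.0439. The odorant-binding *Obp2a* and the antimicrobial lectin *Reg3g*, further genes of mucosa that were chosen after their values were seen, were not well above background with PACAP38 and at least 2.11-fold and 1.96-fold lower.

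The dissection had left out the olfactory bulb, yet genes of its neurons were measured and lower. *S100a5*, a marker of olfactory sensory and bulb neurons, had 899 and 1021 in saline and 55.5 and 36.0 in PACAP38, log2 ratios of -4.02 and -4.83 and a fold of 0.0467. *Tbx21*, a transcription factor of mitral and tufted cells, had 409.6 and 378 in saline and 64.8 and 54.5 in PACAP38, a fold of 0.151, and *Eomes* of the same cells was at least 5.36-fold lower. *Doc2g* and *Cdhr1* were at 0.313-fold and 0.407-fold. In all, 9 of 19 measured members of that list were lower, with a median of -0.47, and the summed signal of the list, which broadly expressed genes such as *Uchl1* dominate, was 94992 and 102541 in saline and 99720.0 and 97675 in PACAP38. *Omp*, the defining gene of olfactory sensory neurons, and *Barhl2* were not well above background in either pool, nor was *Eomes* with PACAP38. Of pituitary hormone genes 2 of 11 measured were lower and 2 higher, *Cga*, the subunit shared by the glycoprotein hormones, at 3.42-fold from 22.0 and 25.4 to 87.5 and 75.0 and *Pitx1* at 2.08-fold. The summed signal of that list was 49268 and 39592 in saline and 33786 and 36006 in PACAP38, and 4 of its 16 members on the array were not well above background on either array in saline and 6 with PACAP38, with *Fshb* and *Pou1f1* among both.

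The list of hypothalamic neuropeptide genes, which also holds *Hdc*, the gene of the enzyme that forms histamine, had 4 of 17 lower. *Hdc* was at 0.368-fold, *Hcrt* (orexin) at 0.671-fold and *Avp* (vasopressin) at 0.676-fold. The summed signal of the list was 53712 and 55173 in saline and 47199 and 44220.3 in PACAP38. Genes of serotonergic and dopaminergic neurons were lower in 5 of 13, with the serotonin transporter *Slc6a4* at 0.55-fold, tyrosine hydroxylase (*Th*) at 0.58-fold and *Tph2* at 0.665-fold, the last with log2 ratios of -0.34 and -0.84, of which 1 passed, and summed signals of 26711 and 29672 and 25214 and 25172. Choroid plexus genes were lower in 2 and higher in 1 of 18, with *Ttr* (transthyretin) at 0.741-fold, and summed signals of 38730.2 and 41699 and 36020.4 and 35296. The hypothalamic genes *Sim1*, *Six6* and *Npvf* and the midbrain genes *En1* and *Ret* were not well above background in either pool, and the serotonergic regulator *Fev* not with PACAP38. None of 18 measured cerebellar and none of 15 measured thalamic genes was past the threshold. For lists of this size that is not far from the share over all measured genes, 5.19% lower and 0.626% higher. Among the 4 pools of 24 h, the pool that stood apart for *5430401F13Rik* and the olfactory bulb list was PMCAO with saline. There *5430401F13Rik*, which was not well above background in sham with PACAP38, had log2 signals of 10.47 and 10.30, against 4.87 and 5.08 in sham with saline and 4.44 and 4.66 in PMCAO with PACAP38, and the mean of the olfactory bulb list was 10.20, against 9.59 and 9.70 in sham and 9.32 with PACAP38. In sham at 6 h the olfactory bulb list held 6 higher and 0 lower of 16 measured members, where 0.307% of all measured genes were higher. In PMCAO at 6 h it held 2 higher and 0 lower of 19, where 0.563% were higher. Whether the pools held unequal amounts of neighbouring tissue, and its part in the results, was not tested.

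**Figure D5:**
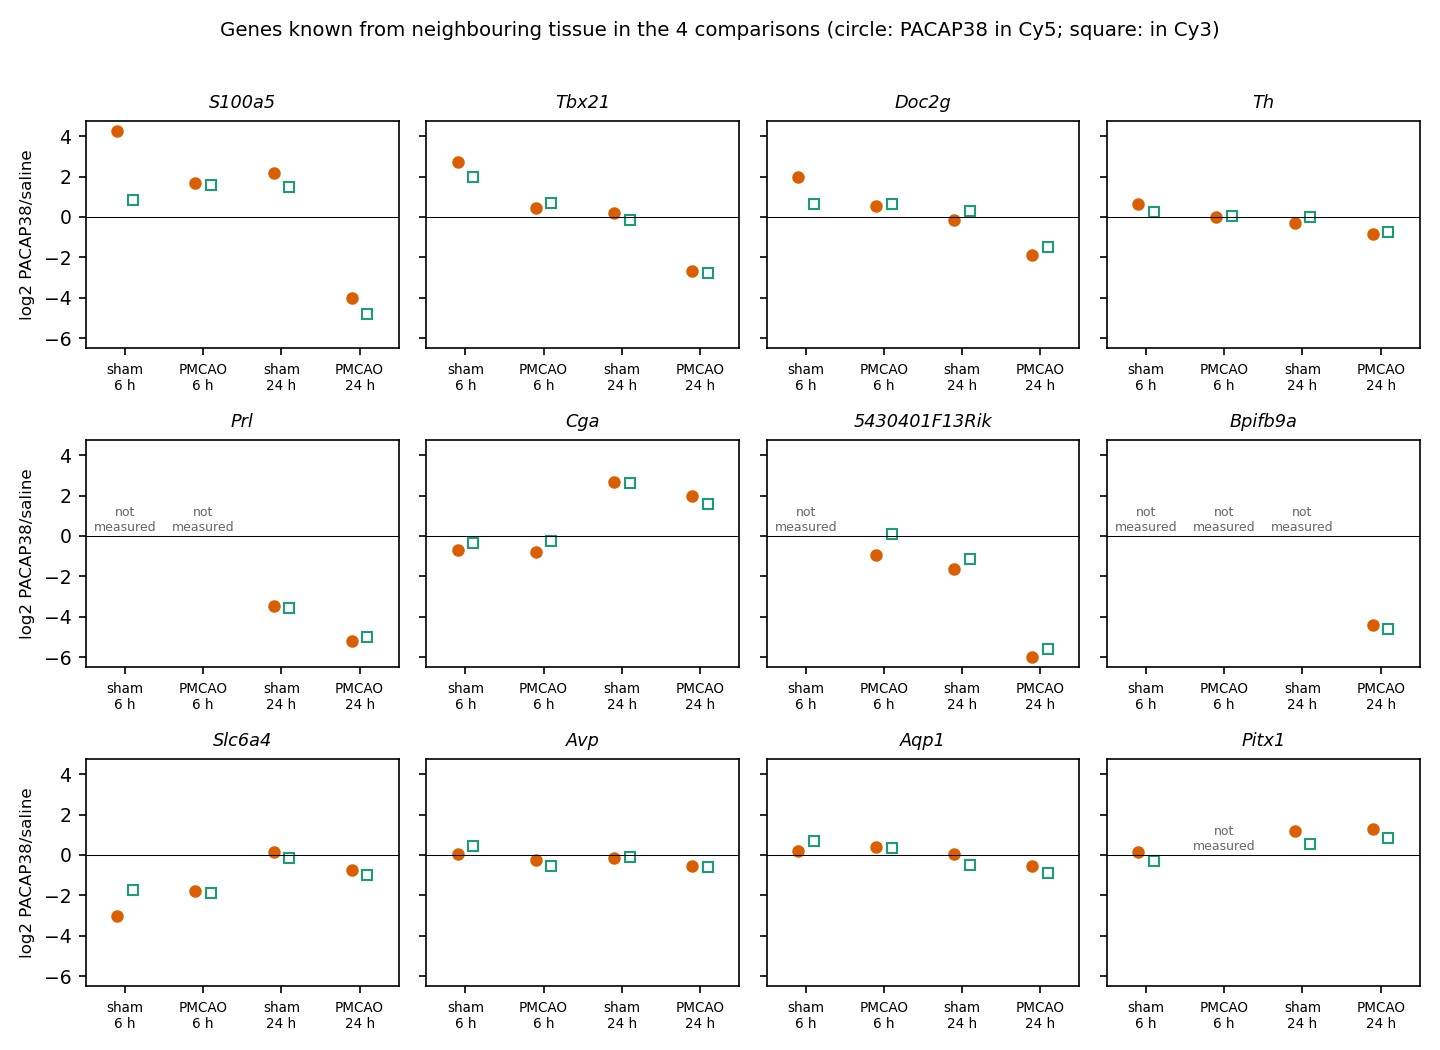
Log2 ratio of PACAP38 over saline in the 4 comparisons for 12 genes known from tissue near the dissected hemisphere, as circles for the array with PACAP38 in Cy5 and squares for the array with it in Cy3. At 24 h after PMCAO *S100a5*, *Tbx21*, *Doc2g*, *Prl*, *5430401F13Rik* and *Bpifb9a* are lower on both arrays, while *S100a5* is above 0 on both arrays of each other comparison.

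The same genes were then read in the other comparisons, which used other pools. Of the 804 lower genes 669 were measured in sham at 24 h, where 20 were lower, of 41 lower there in all (0.267% of 15339 genes), and 3 were higher, of 13 in all (0.0848%). Over measured probes the 2 arrays of that sham comparison correlated at -0.457, and 348 of its genes passed with opposite signs. In sham at 6 h 580 were measured, where 4 were lower, of 44 in all (0.365% of 12067 genes), and 20 were higher, of 37 in all (0.307%). In PMCAO at 6 h 693 were measured, where 14 were lower, of 190 in all (1.29% of 14736 genes), and 33 were higher, of 83 in all (0.563%). Of the 97 higher genes 86 were measured in PMCAO at 6 h, where 1 was higher and 5 were lower. The neutrophil list, lower in 21 of 24 at 24 h after PMCAO, held 0 lower and 3 higher of 19 measured members at 6 h and 1 lower and 2 higher of 13 in sham at 24 h. CC chemokines held 3 higher and 0 lower of 16 at 6 h, with a median log2 ratio of 0.04, and AP-1 factors 1 higher and 0 lower of 12, with a median of 0.28. *Il6* had log2 ratios of 1.96 and 1.24 in PMCAO at 6 h, where saline was above background on 1 of 2 arrays, and was not well above background in sham at 24 h. *Timp1* had 0.38 and 0.54 in PMCAO at 6 h and -0.52 and -0.67 in sham at 24 h. The arrays of 6 h lay on another slide and were extracted with another version of the software, so that time, slide and software cannot be told apart, and no difference between the comparisons was tested.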

How the data were processed

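Total RNA of the ischemic or sham right hemisphere was pooled from 3 mice per group, and PACAP38 and saline pools were labeled with Cy5 and Cy3 and hybridised together to 4x44K whole mouse genome arrays, with a dye swap. Per the file headers, the intensity of each spot was background-subtracted, detrended and dye-normalized by Agilent Feature Extraction (version 9.5.3.1 at 24 h and 9.5.1.1 at 6 h), which also gave the deposited log10 ratio of Cy5 over Cy3 and a p-value from its error model for 1 spot. The authors also deposited a table that holds this ratio for arrays with PACAP38 in Cy5 and, as a score, the same ratio with a minus sign for the swapped arrays. No spot was marked as saturated on the arrays of PMCAO at 24 h.

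Each log10 ratio was turned to log2 of PACAP38 over saline, control spots and outlier spots were left out, and spots of 1 probe were averaged. The probe that was brightest over all 8 arrays stood for a gene, whether or not it was measured in a comparison. Of 41174 probes 23082 were named by accession, 6582 by symbol and 3073 by synonym through RefSeq, and 1879 kept the name of the file. A gene was called when both arrays passed 1.5-fold or 0.75-fold. Pool signals came from limma 3.58.1 (R 4.3.3), with loess within arrays and Aquantile between the arrays of 24 h. A limit ("at least") set the brighter group against the dimmest probe still well above background, or the probe's own signal if higher. Other steps ran in Python 3.11.15 with numpy 2.4.6 and pandas 2.3.3. The calling rule was tested on simulated data.

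The 55 gene lists and the rules were chosen with earlier results of these data known. Named genes were, per list, up to 4 called genes of largest change, the 8 highest and 8 lowest genes of all, the genes of the RT-PCR of the study, all members of lists of up to 5 genes, and members of lists that identify a tissue or cell type. Other members of the lists are given as examples that were not called or by range, and genes outside these rules are marked as chosen after their values were seen. The alternatives were normexp background correction with an offset of 50, the deposited table, centring, each array alone, other filters, other thresholds and other ways of choosing probes. The number of arrays limits the precision. Single genes are not reported here although they enter the counts.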

Additional observations from a re-analysis of the deposited data

Results flagged for a closer look

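Among the named genes reported here, 11 were lower at 24 h after PMCAO and higher in PMCAO at 6 h or in sham at 24 h. These differences were not tested. Over all genes lower at 24 h after PMCAO, 33 of 693 measured were higher in PMCAO at 6 h, where 0.563% of all measured genes were. In sham at 24 h it was 3 of 669, where 0.0848% of all measured genes were higher. Against PMCAO at 6 h, the neutrophil genes *Mmp8* and *Retnlg* had mean log2 ratios of -3.38 and -3.16 at 24 h, while at 6 h they were at 1.90-fold and 1.72-fold. The cytokines *Il6* and *Il1b* had -2.28 and -2.06 at 24 h and 3.04-fold and 2.21-fold at 6 h, where the saline signal of *Il6* was above background on 1 of 2 arrays. The chemokines *Ccl3* and *Ccl4* had -2.08 and -1.89 at 24 h and 2.47-fold and 2.05-fold at 6 h. The stress genes *Hspa1a* and *Atf3* had -1.16 and -1.12 at 24 h and 2.31-fold and 1.60-fold at 6 h. *Crtam*, which did not pass the threshold at 24 h with normexp, had -0.84 at 24 h and 4.23-fold at 6 h. The olfactory gene *S100a5* had a mean log2 ratio of -4.42 at 24 h after PMCAO, whereas it was at 3.07-fold after 6 h and, in sham mice of 24 h, at 3.53-fold. Likewise *S100a9* had -3.08 at 24 h after PMCAO and 1.52-fold in sham at 24 h. Each comparison is 1 pair of pools, and the arrays of 6 h lay on another slide, whose part cannot be told apart from that of time.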

How the results depend on the processing

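The count of lower genes was 804 and lay between 594 and 1153 with normexp (594, of which 583 were among the 804), the deposited table (787), outlier spots kept, centring (888), no filter on dim probes (940), both groups above background (699), the mean of all probes of a gene (800) and the mean of the arrays (1153). It was 512 with 1.5-fold either way, 203 with 2-fold, 512 with the error model of the software at 0.01, 1274 when probes were counted and 1562 to 1564 with 1 array alone. The count of higher genes was 97 and became 21 with normexp (20 of them among the 97), 192 with the mean of the arrays, 157 with no filter, 13 with 2-fold, 172 when probes were counted and 418 to 637 with 1 array alone. With the remaining alternatives it was between 76 and 97. Higher genes were 10.8% of the calls, 3.41% with normexp and 7.88% after centring. All 140 called named genes kept their direction in the 7 alternatives run on them, which most of these alternatives could hardly change. For each array alone it follows from the calling rule. Centring moved the log2 ratios by only 0.035 and 0.036, and the deposited table holds the same ratios. With normexp 72 of the 140 moved by more than the SD of the arrays, as *Tnf* from a log2 ratio of -1.88 to -0.88 and *Cxcl3* from -3.44 to -1.93. With normexp 112 of 126 lower and 7 of 14 higher ones still passed. Of the 55 lists, the count of lower members stayed within 1.5 times in 50 to 53 under the 4 alternatives run on them. No paired analysis was possible because each pool was hybridised on 2 arrays of the same RNA, which are 1 replicate, so that no test with a block exists. Of 39 called named genes with another measured probe, *Tubb6* had one that disagreed, at 1.14-fold. As limits of signal over background, 53 lower and 5 higher genes have only a limit. The mice within a pool cannot be seen apart.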

Other observations

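Several further lists held a few lower genes and no higher one, where 5.19% of all measured genes were lower and 0.626% higher. In heme and iron handling *Hp*, the hemoglobin scavenger haptoglobin, had 1041 and 1003 in saline and 245 and 238 in PACAP38, log2 ratios of -2.09 and -2.08 and a fold of 0.236, and with *Hmox1* made 2 of 15 measured members. In the list of axon regeneration and injury genes 4 of 14 were lower, *Tubb6*, *Anxa1*, *Anxa2* and *Atf3*, with *Anxa2*, a membrane-binding protein that serves plasmin formation, at 0.469-fold. Among p53 targets 4 of 17 were lower, including the cell cycle inhibitor *Cdkn1a* at 0.669-fold from 3731 and 3468 to 2385 and 2431, and *Tnfrsf10b*, a death receptor, at least 2.09-fold lower. In the Bcl2 and caspase list 3 of 25 were lower, *Casp4* at 0.491-fold, *Casp8* at 0.652-fold and *Bcl2a1b*, 1 of several near-identical copies, at 0.598-fold. Lists of the circadian clock, the cell cycle, axon guidance, neurotrophins and insulin-like growth factors held 1 lower gene each, *Nfil3*, *Bub1b*, *Unc5b*, *Ngfr* and *Igfbp3*. These were 1 of 18, 19, 30, 12 and 13 measured members in the same order, not far from the share over all genes.

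Outside the lists, and chosen after their values were seen, the matrix glycoprotein *Thbs1* had log2 ratios of -2.43 and -2.28, the itaconate-forming enzyme *Acod1* of activated macrophages -2.14 and -2.33, the protease inhibitor *Slpi* -2.27 and -2.11 and the protein C receptor *Procr* -1.85 and -1.90. Among the higher genes chosen in the same way were the retinoid receptor *Rxrg* with 0.60 and 0.90, the cyclic AMP-regulated phosphoprotein *Arpp21* with 0.87 and 0.60, the neuropeptide Y receptor *Npy1r* with 0.96 and 0.70 and the nicotinic receptor *Chrna7* with 0.68 and 0.65. Of 7 measured *Chrna* genes 1 was higher, *Chrna7*, and 2 were lower. The lower ones were *Chrna10* at 0.459-fold and *Chrna2*, which was not well above background with PACAP38. The peptidase *Mme* (neprilysin) had 0.84 and 1.01.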
